A study of Mus musculus with 10 samples.

Results

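The immunoglobulin genes of aged mouse liver were taken as every gene of the count table whose annotated type was an immunoglobulin constant (C), variable (V), joining (J) or diversity (D) gene and whose counts summed to at least 10 over the 10 libraries. This gave 167 of the 55487 genes in the table, out of 268 genes of these types. They were 12 constant genes (8 of the heavy chain, 1 kappa and 3 lambda), 147 V genes (72 Ighv, 72 Igkv and 3 Iglv) and 8 J segments (4 Ighj and 4 Igkj). No diversity segment was among them. Ighv3-1 and Ighv5-12 stood just inside the limit with 10 counts each, and Ighv1-62-2, Ighv1-62-3, Ighv1-84, Ighv5-15 and Igkv8-18 just outside it with 9 each.

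An antibody is built from heavy and light chains, and each chain gene is assembled in a developing B cell by joining a V segment to a J segment, with a D segment between them in the heavy chain. B cells first make IgM and IgD from the Ighm and Ighd constant genes. After activation the same assembled V region can be moved next to Ighg, Ighe or Igha by class switch recombination. Plasma cells are the antibody-secreting descendants of B cells, and because each clone carries its own V regions, an enlarged clone raises the reads of particular V genes. IgA polymers can be carried into bile by the receptor Pigr, and in aged mice B cells and plasma cells are known to gather in many tissues.

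Poly(A)-selected liver RNA (oligo-dT) was sequenced from mice aged 22 months, of strain C57B/6J as the labels spell it. The 5 LKO libraries come from Arg2LKO mice, which lack the mitochondrial arginase gene Arg2 in the liver, and the 5 Flox libraries from Arg2fl/fl littermates, which carry floxed Arg2 alleles without that deletion. All mice were kept together and ate normal chow. Neither the Cre driver nor the sex of the mice is given in the sources used here, and no label says outright that each library is a separate mouse, so p-values measure only the spread between these libraries. The LKO columns are numbered 1 to 5 while the LKO titles carry other numbers, so LKO 1 to LKO 5 name columns of the table.

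Libraries held 43331354 to 54951415 counts. At these totals 3 counts, the most that a count of 0 allows, correspond to 0.0546 to 0.0692 CPM (the count of a gene scaled to the library total). Arg2 itself had 0, 0, 0, 4 and 6 counts in LKO 1 to 5, against 0, 4, 0, 5 and 0 counts in Flox 1 to 5, so at this depth it did not check the group labels. Acute phase genes, the liver's response to inflammation, were highest in Flox 3, Flox 2 and Flox 4: their 8 genes summed to 70207, 38348 and 17183 CPM there, against 4329 and 5833 CPM in the other two Flox libraries, while the 5 LKO libraries had 3207 to 9907 CPM. Because whole liver was sequenced, fewer cells of a type and less RNA per cell cannot be told apart.

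The name of plasma cells was checked against their markers. Jchain, which links IgM and IgA into polymers, was present in every library, at 4.97, 7.47, 7.17, 4.80 and 8.81 CPM in LKO 1 to 5 and 2.58, 6.62, 2.98, 8.12 and 18.5 CPM in Flox 1 to 5. Mzb1, a chaperone of antibody assembly, stayed between 0.02 and 0.13 CPM in the LKO libraries and between 0 and 0.21 CPM in the Flox libraries. Tnfrsf17, the plasma cell survival receptor BCMA, stayed between 0 and 0.17 CPM in the LKO libraries and between 0 and 0.04 CPM in the Flox libraries. These 2 markers were thus scarce or listed at 0 in every library. They were also the only 2 of the 21 plasma cell and secretion genes too low to be tested. Other genes of that list had counts in all 10 libraries. Prdm1 lay at 0.09 to 0.51 CPM in LKO and 0.35 to 0.80 CPM in Flox. Irf4 lay at 0.17 to 0.35 CPM in LKO and 0.14 to 0.71 CPM in Flox. Pou2af1 lay at 0.33 to 0.95 CPM in LKO and 0.04 to 1.49 CPM in Flox. B cell markers were also present: Cd79a, a signalling chain of the B cell receptor, lay at 0.55 to 2.99 CPM in LKO and 0.39 to 2.71 CPM in Flox. The 167 genes are therefore called immunoglobulin genes below and not assigned to plasma cells alone.

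The sequences that the V gene results turn on are shown first. The first set gives the last 90 bases of the V exon, before the joining signal, of 6 V genes that led a library and of Igkv12-89, the third in Flox 4, with the codon of the conserved cysteine that ends framework 3 in capitals. Sequences and positions are those of the GENCODE transcripts on GRCm38 and run 5′ to 3′ along the gene's own strand.
Ighv1-53, chr12:115158403-115158492, minus strand: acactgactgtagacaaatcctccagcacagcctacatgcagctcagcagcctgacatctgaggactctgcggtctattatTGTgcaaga
Ighv1-85, chr12:116000028-116000117, minus strand: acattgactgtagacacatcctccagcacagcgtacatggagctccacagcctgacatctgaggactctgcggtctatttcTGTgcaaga
Ighv1-9, chr12:114583569-114583658, minus strand: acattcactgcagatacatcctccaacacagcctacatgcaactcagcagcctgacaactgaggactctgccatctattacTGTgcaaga
Igkv14-111, chr6:68256780-68256869, plus strand: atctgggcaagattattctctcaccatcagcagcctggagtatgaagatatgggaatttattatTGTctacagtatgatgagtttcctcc
Igkv12-46, chr6:69764523-69764612, minus strand: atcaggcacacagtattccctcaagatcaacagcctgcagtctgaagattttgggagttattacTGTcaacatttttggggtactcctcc
Igkv3-2, chr6:70698978-70699067, plus strand: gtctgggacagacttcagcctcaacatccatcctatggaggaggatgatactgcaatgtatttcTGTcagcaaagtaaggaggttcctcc
Igkv12-89, chr6:68834846-68834935, minus strand: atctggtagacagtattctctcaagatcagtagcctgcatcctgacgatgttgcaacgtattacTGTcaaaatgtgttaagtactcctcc
Igkv12-46 and Igkv12-89 share a family name and the cysteine codon but were 85.9% identical over the exon, and they peaked in different libraries (LKO 2 and Flox 4).

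The next set pairs 3 V genes that were concentrated in a single library with their closest relative among all V genes of the annotation. Each sequence covers the last 120 bases of the exon, and capitals mark the bases that differ within a pair. Reads from near copies can be lost or assigned to the wrong copy, and the labels and headers do not say how reads with several matches were counted.
Ighv1-54, chr12:115193675-115193794, minus strand: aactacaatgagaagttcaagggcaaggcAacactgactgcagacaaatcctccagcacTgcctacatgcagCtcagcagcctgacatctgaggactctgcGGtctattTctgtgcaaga
Ighv1-63, chr12:115495625-115495744, minus strand: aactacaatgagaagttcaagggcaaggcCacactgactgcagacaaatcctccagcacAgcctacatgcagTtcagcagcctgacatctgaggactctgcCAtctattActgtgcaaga
Igkv4-58, chr6:69500254-69500373, minus strand: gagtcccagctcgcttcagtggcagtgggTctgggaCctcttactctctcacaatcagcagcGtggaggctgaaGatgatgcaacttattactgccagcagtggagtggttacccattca
Igkv4-51, chr6:69681406-69681525, minus strand: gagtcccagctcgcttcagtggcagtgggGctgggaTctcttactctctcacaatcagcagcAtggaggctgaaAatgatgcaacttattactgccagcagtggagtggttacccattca
Igkv9-120, chr6:68050337-68050456, plus strand: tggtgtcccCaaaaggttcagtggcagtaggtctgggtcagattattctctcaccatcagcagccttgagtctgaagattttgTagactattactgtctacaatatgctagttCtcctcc
Igkv9-124, chr6:67942074-67942193, minus strand: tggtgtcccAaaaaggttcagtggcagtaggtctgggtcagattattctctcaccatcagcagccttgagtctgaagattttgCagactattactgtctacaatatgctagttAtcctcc
The pairs differ at 6, 4 and 3 of these bases. Over the whole V exon, Ighv1-54 was 92.8% identical to Ighv1-63, Igkv4-58 was 96.1% identical to Igkv4-51 and Igkv9-120 was 96.0% identical to Igkv9-124.

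The J segments with the most counts at each locus are shown for the motif that marks them, with the codons of Trp-Gly-X-Gly (Ighj4) or Phe-Gly-X-Gly (Igkj5) in capitals.
Ighj4, chr12:113428514-113428567, minus strand: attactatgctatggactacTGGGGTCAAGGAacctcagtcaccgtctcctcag
Igkj5, chr6:70723886-70723923, plus strand: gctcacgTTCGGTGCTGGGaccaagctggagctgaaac
Ighj4 held 37.2% of the 454 counts on Ighj segments and Igkj5 held 38.1% of the 286 counts on Igkj segments. Pooled over the libraries of a group, Ighj4 held 31.0% in LKO and 42.1% in Flox, and Igkj5 held 28.0% in LKO and 45.2% in Flox. The pooled Flox shares rest mostly on Flox 4 and Flox 5, since Flox 1 to 5 had 19, 55, 22, 129 and 197 J counts. Of these, Igkj5 had 1, 7, 3, 30 and 35. J segments made up 740 of the 122807 immunoglobulin counts, which leaves these shares without a usable value per library.

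Immunoglobulin transcripts were a small and variable part of the liver RNA. All 167 genes together reached 158, 274, 264, 166 and 348 CPM in LKO 1 to 5, against 125, 157, 90.4, 321 and 522 CPM in Flox 1 to 5. Flox 5 was the highest library and Flox 3 the lowest, and the LKO values all lay inside the Flox range. The means were 242 ± 79.8 CPM in LKO and 243 ± 179 CPM in Flox (SD, n = 5 each), a ratio of 0.995. That ratio was 1.396 without Flox 5 and 0.750 without Flox 2 and Flox 3. No test was made on this sum.

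Constant genes carried 105351 of the counts (85.8%), V genes 16716 (13.6%) and J segments the rest. Igkc, the kappa light chain constant gene, and Ighm, the heavy chain of IgM, held 34.9% and 34.7% of all immunoglobulin counts. Per kilobase of annotated exon, Igkc averaged 154 CPM in LKO and 165 CPM in Flox, and Ighm 55.2 CPM in LKO and 34.3 CPM in Flox. Ighg2c averaged 4.08 CPM per kilobase in LKO and 7.12 in Flox, and Ighg1 0.758 in LKO and 8.94 in Flox. The V genes of the kappa locus gave 21.2 to 29.9 counts per 100 Igkc counts in LKO and 20.3 to 27.4 in Flox, so V and C counts of kappa kept a similar proportion in all 10 libraries. The heavy chain was less even, with 5.17 to 11.9 Ighv counts per 100 heavy constant counts in LKO and 4.85 to 15.9 in Flox.

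IgM took a larger share of the heavy chain in LKO livers and IgG a smaller one, but neither difference passed after adjustment over the shares tested. Ighm held 75.0, 77.3, 88.2, 91.6 and 85.5% of the heavy chain constant counts in LKO 1 to 5, against 82.8, 26.0, 52.4, 63.8 and 50.2% in Flox 1 to 5. The 4 libraries Flox 2 to Flox 5 lay below every LKO library, whereas Flox 1 lay inside the LKO range. The means were 83.5 ± 7.13% in LKO and 55.05 ± 20.8% in Flox (SD, n = 5 each), a difference of 28.4 percentage points (two-sided exact permutation p = 0.0238, adjusted p = 0.119 over 10 shares; the smallest p this design allows is 0.00794). Without Flox 1 the difference was 35.4 points (exact permutation p = 0.00794, adjusted p = 0.0397), and without Flox 2 and Flox 3 it was 17.9 points (exact permutation p = 0.0714, adjusted p = 0.357). Leaving out Flox 1 removed the only Flox library that overlapped LKO. The p without it follows from that choice and adds no support.

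**Figure D1:**
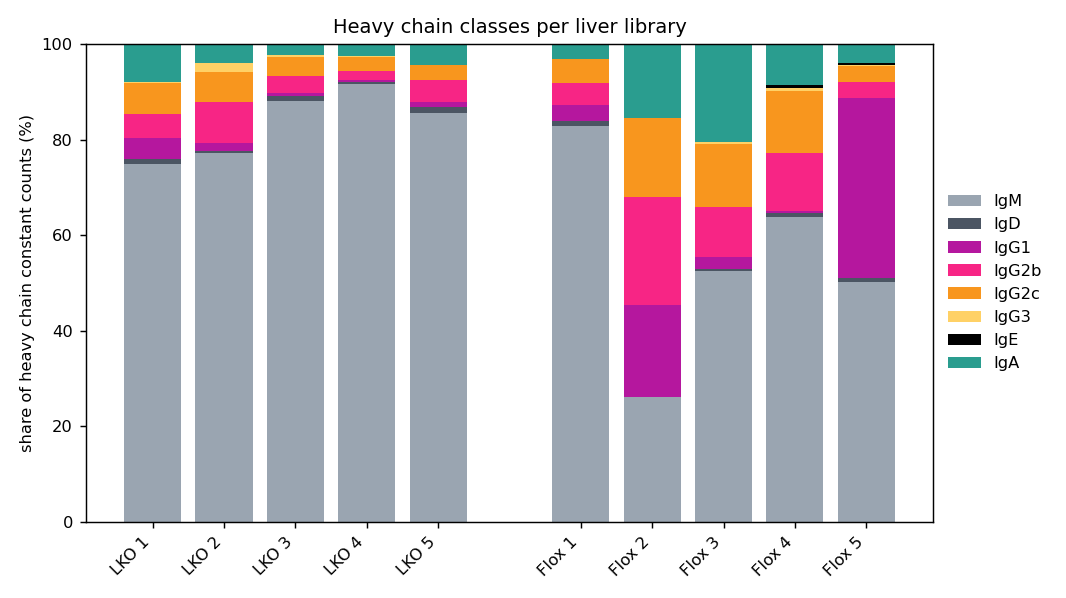
Stacked bars give the share (%) of each heavy chain class among the heavy chain constant counts of each LKO library (left) and each Flox library (right). IgM (grey) ranges from 75.0 to 91.6% in LKO and from 26.0 to 82.8% in Flox, and the large IgG1 blocks belong to Flox 5 (37.6%) and Flox 2 (19.3%).

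The 4 IgG genes together held 16.0, 18.5, 8.72, 5.47 and 8.85% of the heavy chain constant counts in LKO 1 to 5, against 13.0, 58.4, 26.6, 26.2 and 44.6% in Flox 1 to 5. Again Flox 1 was the only Flox library inside the LKO range. The mean share was 11.5 ± 5.48% in LKO and 33.7 ± 17.8% in Flox (SD, n = 5 each), 22.2 points lower in LKO (exact permutation p = 0.0238, adjusted p = 0.119). Without Flox 1 the LKO minus Flox difference was -27.4 points (exact permutation p = 0.00794, adjusted p = 0.0397), and without Flox 2 and Flox 3 it was -16.4 points (exact permutation p = 0.0536, adjusted p = 0.357). As for IgM, the p without Flox 1 follows from removing the only overlapping Flox library and adds no support. IgM and IgG shares are parts of the same total, so these are not separate pieces of evidence.

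The absolute levels behind these shares showed where each library stood. Ighm (ENSMUSG00000076617, chr12:113418558-113422730) lay at 72.6, 92.8, 106, 75.3 and 173 CPM in LKO 1 to 5, against 63.6, 17.0, 21.1, 89.1 and 132 CPM in Flox 1 to 5. Flox 2 and Flox 3 were the lowest libraries and Flox 5 was second to LKO 5, so the groups overlapped. The log2 fold change of LKO over Flox was 0.73 ± 0.54 (SE; edgeR adjusted p = 0.716). IgG in all lay at 15.5, 22.2, 10.5, 4.50 and 17.9 CPM in LKO 1 to 5, against 9.96, 38.1, 10.7, 36.6 and 118 CPM in Flox 1 to 5.

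The 20 B cell markers summed to 7.68 to 29.9 CPM in LKO and 8.28 to 27.2 CPM in Flox. In the libraries with the lowest Ighm this sum was 8.28 CPM (Flox 2) and 19.0 CPM (Flox 3). Single markers differed in their order. Cd79a was lowest in Flox 2 (0.39 CPM) and Flox 3 (0.47 CPM). So were Cd79b, Ms4a1, Ebf1, Fcer2a, Cr2 and Cxcr5. The other markers of the list did not have both of these libraries lowest, and Cd72 was lowest in LKO 1 (0.30 CPM). Ly6d was highest in Flox 3 and alone gave 11.3 of the 19.0 CPM there. The 14 T cell markers summed to 2.80 to 7.85 CPM in LKO, against 4.98 CPM in Flox 1, 12.4, 13.4 and 12.9 CPM in Flox 2 to 4 and 6.93 CPM in Flox 5. Flox 2 to 4 were also the libraries with the highest acute phase sums given above. The part of these genes and of inflammation in the class shares was not tested.

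Among the single classes, Ighg1 (ENSMUSG00000076614, chr12:113325240-113330523), the heavy chain of IgG1, differed most in log2 fold change between the groups among the constant genes tested. It lay at 4.12, 2.04, 0.92, 0.35 and 2.39 CPM in LKO 1 to 5, against 2.58, 12.6, 1.05, 0.56 and 99.1 CPM in Flox 1 to 5. Flox 5, with 5308 counts, stood far above all other libraries, Flox 2 came next, and the other three Flox libraries lay inside the LKO range. The means were 1.96 ± 1.46 CPM in LKO and 23.2 ± 42.7 CPM in Flox (SD, n = 5 each), and the log2 fold change was -3.50 ± 1.43 (SE; edgeR adjusted p = 0.652). Without Flox 5 the log2 fold change was -1.05 (edgeR adjusted p = 0.675) and the Flox mean was 4.19 CPM, and with library quality weights it was -1.47 (limma-voom adjusted p = 0.833). As a share of the heavy chain, IgG1 averaged 1.66 ± 1.52% in LKO and 12.6 ± 15.8% in Flox (SD, n = 5 each; exact permutation p = 0.159, adjusted p = 0.238).

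Ighg2b and Ighg2c, the heavy chains of IgG2b and of the IgG2 form that C57BL/6 mice carry, ran side by side. Ighg2b lay at 4.87, 10.3, 4.26, 1.50 and 9.26 CPM in LKO 1 to 5, against 3.63, 14.7, 4.21, 16.8 and 8.77 CPM in Flox 1 to 5. Ighg2c lay at 6.38, 7.38, 4.64, 2.45 and 6.18 CPM in LKO 1 to 5, against 3.74, 10.8, 5.34, 18.1 and 9.22 CPM in Flox 1 to 5. For both genes the highest libraries were Flox 4 and Flox 2 and the lowest was LKO 4, and the groups overlapped. Their log2 fold changes were -0.63 ± 0.56 (edgeR adjusted p = 0.758) and -0.75 ± 0.41 (edgeR adjusted p = 0.657). The coding sequences of these genes are 85.9% identical, so part of their reads could be shared.

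Igha, the heavy chain of IgA, lay at 7.73, 4.66, 2.68, 2.05 and 8.89 CPM in LKO 1 to 5, against 2.46, 10.1, 8.28, 11.8 and 10.7 CPM in Flox 1 to 5. Flox 2, 4 and 5 lay above every LKO library, Flox 3 lay below LKO 5 alone, and Flox 1 lay near the lowest (log2 fold change -0.68 ± 0.48, edgeR adjusted p = 0.699). As a share of the heavy chain IgA was highest in Flox 3 (20.5%) and Flox 2 (15.5%), with means of 4.19 ± 2.30% in LKO and 10.3 ± 7.48% in Flox (SD, n = 5 each; exact permutation p = 0.111, adjusted p = 0.222). When IgM, IgD and IgE were left out of the denominator, the mean IgA share was 27.1 ± 7.64% in LKO and 23.4 ± 12.8% in Flox, so the sign of its difference turned. The signs of IgG2b (29.8 ± 7.53% in LKO, 24.7 ± 10.9% in Flox) and IgG2c (30.1 ± 5.94% in LKO, 25.0 ± 11.3% in Flox) turned as well.

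Ighe, the heavy chain of IgE, was listed at 0 counts in LKO 1 to 4 and at 2 counts in LKO 5, against 0, 0, 2, 51 and 42 counts in Flox 1 to 5. Only Flox 4 (0.93 CPM) and Flox 5 (0.78 CPM) exceeded 3 counts, and the gene was too low in too many libraries to be tested.

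Ighg3, the heavy chain of IgG3, had its peak in LKO 2: it lay at 0.17, 2.49, 0.71, 0.21 and 0.11 CPM in LKO 1 to 5, against 0.02, 0.06, 0.13, 1.11 and 0.50 CPM in Flox 1 to 5. Its log2 fold change of 1.03 ± 1.04 (edgeR adjusted p = 0.780) turned to -0.24 without LKO 2. Ighd, which is spliced from the same transcript as Ighm in B cells that have not switched, lay at 0.35 to 2.62 CPM in LKO and 0.08 to 2.35 CPM in Flox. Flox 2 and Flox 3 were the lowest for Ighd, as for Ighm (log2 fold change 0.34 ± 0.79, edgeR adjusted p = 0.912; it was -0.30 without these 2 libraries).

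**Figure D2:**
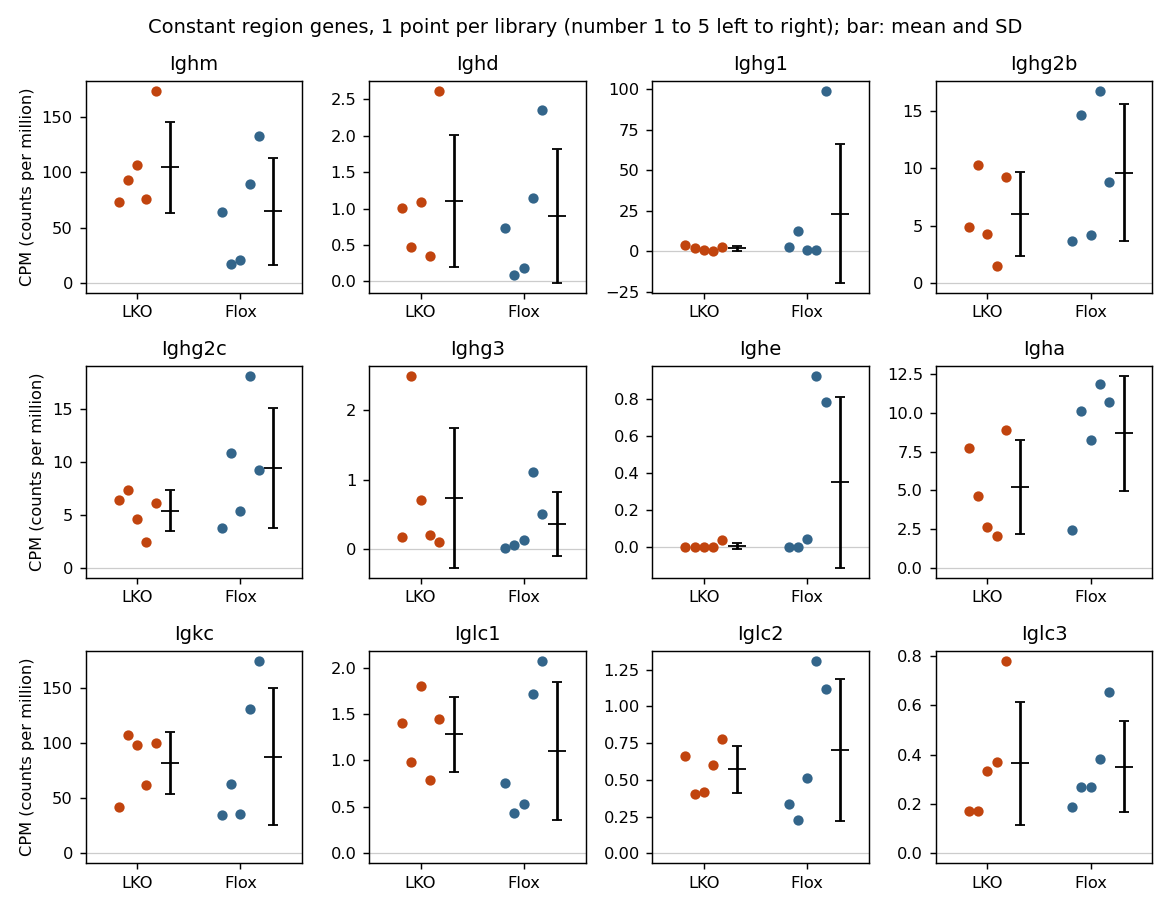
Each panel plots the CPM of a constant gene in the 5 LKO libraries (left, orange) and the 5 Flox libraries (right, blue), with the mean and SD beside each group on a linear axis. Single libraries stand out in some panels: Ighg1 in Flox 5 (99.1 CPM) and Ighg3 in LKO 2 (2.49 CPM). The Ighe panel rests on Flox 4 (0.93 CPM) and Flox 5.

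Kappa dominated the light chains in every library. Igkc (ENSMUSG00000076609, chr6:70726435-70726966) lay at 41.7, 108, 98.3, 62.4 and 100 CPM in LKO 1 to 5, against 34.7, 63.4, 35.6, 131 and 175 CPM in Flox 1 to 5, and the groups overlapped throughout (log2 fold change -0.05 ± 0.48, edgeR adjusted p = 0.979). The share of kappa among light chain constant counts ran from 94.9 to 98.6% in LKO and from 96.4 to 98.6% in Flox (mean 97.1 ± 1.34% in LKO and 97.4 ± 0.918% in Flox, SD, n = 5 each; exact permutation p = 0.770, adjusted p = 0.770). The lambda constant genes Iglc1, Iglc2 and Iglc3 lay at 0.17 to 1.80 CPM in LKO and 0.19 to 2.07 CPM in Flox, with log2 fold changes of 0.27, -0.24 and 0.10 and SE of 0.43 to 0.48. Iglc2 and Iglc3 are 96.5% identical in coding sequence, which limits how far their reads can be separated.

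Of the 167 genes, 41 passed the filter on low counts and were tested: 11 constant genes, 28 V genes and 2 J segments. None was past the adjusted threshold of 0.05, as was the case for all 15894 genes tested by edgeR (0.0%; DESeq2 called 6 genes of the table, none of them an immunoglobulin gene), and the lowest adjusted p was 0.652. At an unadjusted p under 0.05, 0 were higher in LKO, against 3.17% of all genes tested, and 2 were lower (Ighg1 and Ighv1-9), against 4.33% of all genes tested and 7.51% in either direction. No gene of the 41 had groups that did not overlap, where 0.327% of all genes tested did so with LKO higher and 0.617% with LKO lower. Without a filter 6 of 167 were higher and 8 lower at this unadjusted p, where 6.55% of all genes were called in either direction. With DESeq2 7 were higher and 7 lower, where 4.86% of all genes were called. Neither setting put an immunoglobulin gene past the adjusted threshold. Log2 fold changes were below 0 for 19 of the 41, against 51.6% of all genes tested, with a median of 0.05 for the 41 and -0.01 for all. The median SE was 0.65 for the immunoglobulin genes and 0.18 for all genes tested.

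**Figure D3:**
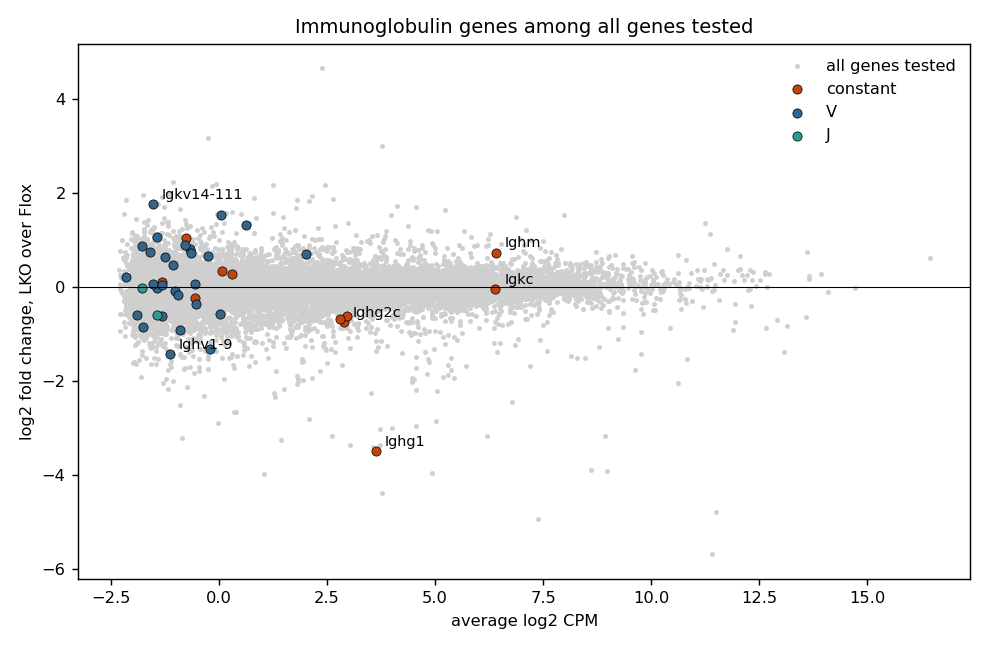
The log2 fold change of LKO over Flox is plotted against the average log2 CPM for all 15894 genes tested (grey) and for the 41 tested immunoglobulin genes, by kind. Ighg1, at -3.50, lies far below the other immunoglobulin genes, which run up to 1.75 (Igkv14-111).

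V genes of the heavy chain were spread over many members, with different leaders in LKO and Flox libraries. Of the 72 Ighv genes, 34 to 63 had a count in any given library and 12 had counts in all 10. Ighv1-53 led in LKO 1, 3, 4 and 5, with 9.38, 14.9, 11.4 and 10.8% of the Ighv counts, and Ighv1-85 led in LKO 2 with 14.7% (99 of 674 counts, 95% exact binomial interval 12.1 to 17.6%). Ighv1-9 led in Flox 1, 3 and 4 with 19.2, 8.89 and 13.4%, and Ighv1-12 led in Flox 2 with 4.96%. Some leads were narrow. Flox 2 had 25 counts of Ighv1-12 and 24 of Ighv1-64, and Flox 3 had 20 of Ighv1-9 and 18 of Ighv1-26. Ighv1-53 was second in Flox 4, with 60 counts against 76. In Flox 5 the leader was Ighv1-54, with 398 of 1382 counts or 28.8% (95% exact binomial interval 26.4 to 31.3%).

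Ighv1-54 was almost confined to Flox 5. It lay at 0.04, 0.04, 0.04, 0 and 0.04 CPM in LKO 1 to 5, against 0, 0.04, 0, 0.04 and 7.43 CPM in Flox 1 to 5, which is at most 2 counts in every library but Flox 5. Its closest relative Ighv1-63, shown above with the 6 differing bases, had 6 counts in Flox 5. Ighv1-85, at 2.11 CPM in LKO 2, lay between 0.04 and 0.21 CPM in the other four LKO libraries and between 0 and 0.49 CPM in the Flox libraries, and its closest relative Ighv1-84 had 0 counts in LKO 2.

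Ighv1-9 was the only V gene at an unadjusted p under 0.05. It lay at 0.06, 0.34, 0.42, 0.23 and 0.04 CPM in LKO 1 to 5, against 0.71, 0.21, 0.45, 1.38 and 0.28 CPM in Flox 1 to 5. Flox 4, Flox 1 and Flox 3 were above every LKO library, and Flox 2 and Flox 5 were inside the LKO range (log2 fold change -1.44 ± 0.66, edgeR adjusted p = 0.652). Ighv1-53, the V gene with the second highest Ighv sum, lay at 0.51 to 1.46 CPM in LKO and 0.13 to 1.38 CPM in Flox (log2 fold change 0.65 ± 0.57, edgeR adjusted p = 0.752). Ighv1-18 and Ighv1-26, which are 97.4% identical, had log2 fold changes of -0.92 and -0.10, and that of Ighv1-18 was 0.73 without Flox 5, where it stood at 2.45 CPM. Ighv9-3 and Ighv3-6 were among the 5 higher genes with the smallest p (log2 fold changes 0.73 and 0.86, edgeR adjusted p = 0.671 and 0.709).

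Among the kappa V genes Igkv3-2 had the most counts. Of the 72 Igkv genes, 46 to 68 had a count in any given library and 28 had counts in all 10, and Igkv3-2 held 1992 of the 11170 Igkv counts. It led in LKO 3 and LKO 4 with 39.1% (550 counts) and 36.0% (206 counts) of the Igkv counts, and in Flox 3, 4 and 5 with 22.6, 17.6 and 13.2%. In CPM it lay at 0.58, 4.28, 11.5, 4.75 and 3.36 in LKO 1 to 5, against 0.32, 1.397, 1.67, 5.97 and 6.33 in Flox 1 to 5. LKO 3 was the highest library and the groups overlapped (log2 fold change 0.69 ± 0.82, edgeR adjusted p = 0.818). At least 50% of the Igkv counts were held by 7, 5, 3, 4 and 7 V genes in LKO 1 to 5. In Flox 1 to 5 it took 8, 8, 6, 4 and 6 V genes, so the groups overlapped.

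Other kappa V genes led elsewhere. Igkv14-111 led in LKO 1 with 16.2% of the Igkv counts; it lay at 1.60, 0.26, 0.21, 0.23 and 0.07 CPM in LKO 1 to 5, against 0.17, 0.25, 0.05, 0.20 and 0.06 CPM in Flox 1 to 5. LKO 1 alone stood out, and its log2 fold change was 1.75 ± 0.80 (edgeR adjusted p = 0.652). Igkv12-46 led in LKO 2 with 19.5% (259 of 1325 counts) at 5.51 CPM, with 0.04 to 1.30 CPM in the other four LKO libraries and 0.09 to 1.60 CPM in the Flox libraries; its log2 fold change of 1.53 ± 1.16 (edgeR adjusted p = 0.717) turned to -0.07 without LKO 2.

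Igkv5-39 led in LKO 5 (12.1%) and in Flox 2 (10.8%). It lay at 0.73, 3.02, 2.38, 1.09 and 3.43 CPM in LKO 1 to 5, against 0.41, 1.64, 0.09, 0.51 and 1.72 CPM in Flox 1 to 5, and LKO 5, 2 and 3 lay above every Flox library (log2 fold change 1.32 ± 0.66, edgeR adjusted p = 0.654). Igkv3-4 led in Flox 1 with 13.6% and lay at 0.30 to 1.60 CPM in LKO and 0.12 to 2.37 CPM in Flox (log2 fold change -0.58 ± 0.63, edgeR adjusted p = 0.796). Igkv10-96 reached 3.995 CPM in Flox 5, against 0.14 to 0.76 CPM in LKO and 0.25 to 0.84 CPM in the other four Flox libraries (log2 fold change -1.33 ± 0.76, edgeR adjusted p = 0.661).

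**Figure D4:**
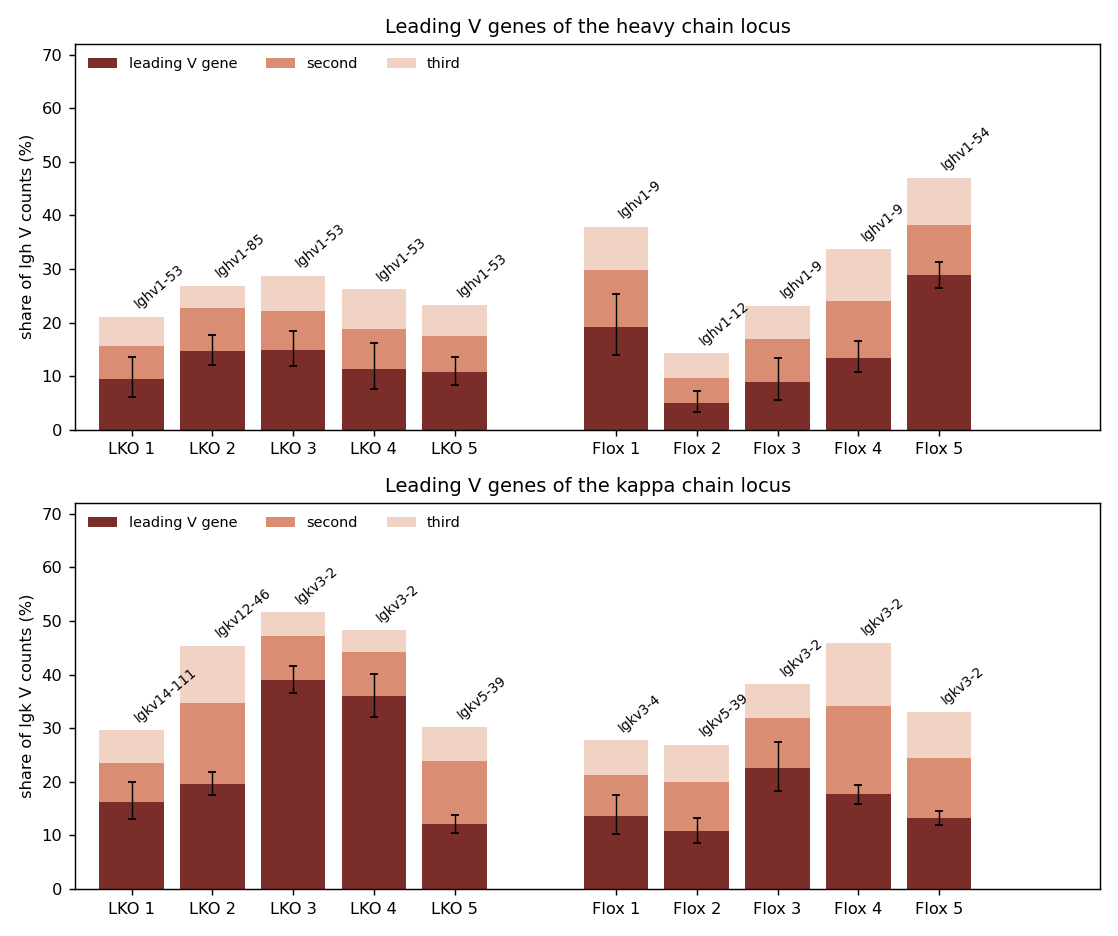
Stacked bars give the share (%) of the Ighv counts (top) and Igkv counts (bottom) held by the 3 leading V genes of each library, LKO left and Flox right, with the leader named and its 95% exact binomial interval. Ighv1-54 reaches 28.8% in Flox 5, and Igkv3-2 reaches 39.1% in LKO 3 and 36.0% in LKO 4.

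The degree of dominance did not separate the groups. The leading Ighv gene held 12.2 ± 2.46% in LKO and 15.0 ± 9.34% in Flox (SD, n = 5 each; exact permutation p = 0.571, adjusted p = 0.571 over 3 loci), and the sign of this difference turned without Flox 5 (0.610 points). The leading Igkv gene held 24.6 ± 12.2% in LKO and 15.6 ± 4.63% in Flox (SD, n = 5 each; exact permutation p = 0.206, adjusted p = 0.310). For lambda, where Iglv1 led in every library but Flox 3, the leader held 71.0 ± 10.2% in LKO and 60.1 ± 12.9% in Flox (SD, n = 5 each; exact permutation p = 0.175, adjusted p = 0.310), on 12 to 125 counts per library. Iglv1 and Iglv2 are 97.0% identical, which limits how far their reads can be separated.

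Several V genes had most of their signal in a single library. Of 86 V genes with at least 50 counts in all, 13 had over 50% of their summed CPM in a single library. The median over the 86 was 30.6% in the highest library of each gene. Some of the 13 reached 50 counts only through the library of their peak, as the Flox 5 counts below show. Of the 13, 8 peaked in Flox 5, 2 in Flox 4, 2 in LKO 2 and 1 in LKO 1. Flox 5 was the highest library for 35 of the 86, and it was also the library with the most immunoglobulin counts. The genes named in the rest of this paragraph and the next were chosen after their values were seen.

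Flox 5 carried Igkv4-58 (286 of its 310 counts), Igkv6-17 (222 of 310), Ighv5-4 (120 of 162) and Igkv4-69 (66 of 68) beside Ighv1-54. Igkv4-58 lay at 0, 0, 0, 0 and 0.33 CPM in LKO 1 to 5, against 0, 0, 0, 0.11 and 5.34 CPM in Flox 1 to 5, and its near copy Igkv4-51 had 7 counts in Flox 5. Flox 5 was also the library of the Ighg1 peak and of the highest Jchain value. Counts per gene do not tell which V region was joined to which constant gene.

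Flox 4 carried 307 of the 374 counts of Igkv9-120 and 217 of the 249 counts of Igkv12-89. Igkv9-120 lay at 0.13, 0.13, 0.13, 0.05 and 0.24 CPM in LKO 1 to 5, against 0.08, 0.04, 0.05, 5.59 and 0.49 CPM in Flox 1 to 5. Its near copy Igkv9-124, which differs at 3 of the 120 bases shown, had 46 counts in Flox 4 and 82 in Flox 5, so the pair did not keep a fixed ratio across these libraries. Igkv12-89 lay at 0.04 to 0.06 CPM in LKO, against 0.11, 0.16, 0.09, 3.95 and 0.06 CPM in Flox 1 to 5. In Flox 4 these genes made up 16.5% and 11.7% of the Igkv counts, just behind Igkv3-2.

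**Figure D5:**
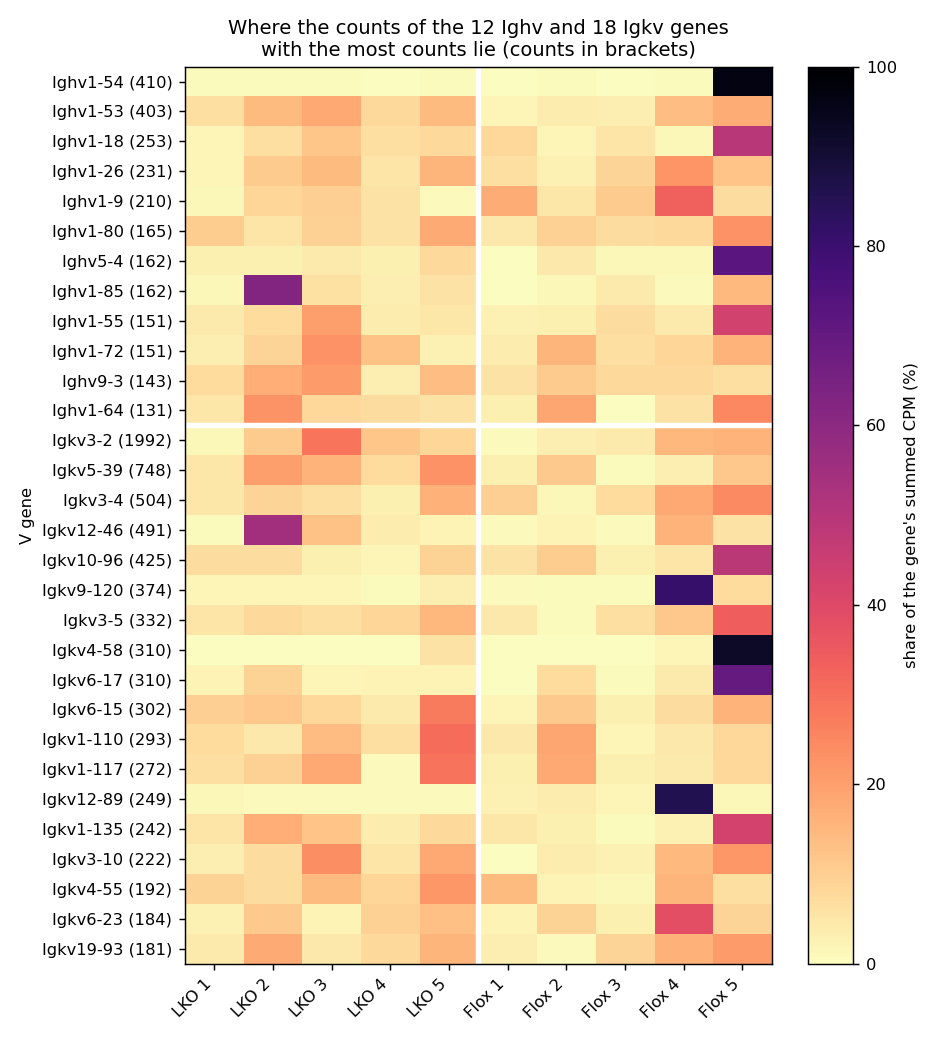
Each cell gives the percentage of a V gene's summed CPM that lies in a library (LKO left, Flox right), for the 12 Ighv and 18 Igkv genes with the most counts, which stand in brackets. Dark cells mark genes concentrated in a single library: Ighv1-54 and Igkv4-58 in Flox 5, Igkv9-120 and Igkv12-89 in Flox 4, Ighv1-85 and Igkv12-46 in LKO 2.

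Grouped by family, Ighv1 held 67.3% of all Ighv counts with 39 of the 72 genes, and its share ran from 55.6 to 72.3% in LKO and from 62.3 to 74.0% in Flox. Igkv3 held 29.1% of all Igkv counts with 8 genes, at 31.9 ± 14.0% in LKO and 27.4 ± 9.38% in Flox (SD, n = 5 each). Family shares followed the single genes above: Igkv9 held 0.349 to 1.31% in LKO and 1.07 to 19.6% in Flox, with the top value in Flox 4, and Igkv12 held 22.2% in LKO 2 and 18.3% in Flox 4. The kappa locus has V genes in both orientations, of which 29 of the 72 lie on the strand of Igkc. These held 52.6 ± 9.03% of the Igkv counts in LKO and 51.0 ± 6.86% in Flox (SD, n = 5 each), with ranges that overlapped. None of these family and orientation shares was tested.

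At an unadjusted p under 0.05, 3.17% of all genes tested were higher in LKO and 4.33% lower, beside the counts of related genes that follow. Among plasma cell and secretion genes, 19 of 21 were tested and 1 was lower at an unadjusted p under 0.05: Slamf7, a surface receptor of plasma cells and other lymphocytes, averaged 0.393 ± 0.0982 CPM in LKO and 0.870 ± 0.538 CPM in Flox (log2 fold change -1.09 ± 0.44, edgeR adjusted p = 0.652). Cd38, the other gene of this list with the smallest p, had a log2 fold change of -0.47 (edgeR adjusted p = 0.668). Of the B cell markers 17 were tested and 0 were past that p in either direction by edgeR, led by Cd72 and Cd37 with log2 fold changes of -0.87 and -0.37 (edgeR adjusted p = 0.671 and 0.777). Medians of the tested genes were -0.18 for the plasma cell list and -0.04 for the B cell list, against -0.01 for all genes tested. Levels within the plasma cell list were far apart. Hspa5 averaged 877 CPM in LKO and 983 CPM in Flox, and Hsp90b1 589 and 636 CPM, against 6.64 and 7.75 CPM for Jchain. Which cells gave these reads was not tested, so the median of this list is not one of plasma cells alone.

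The 8 genes of age-associated B cells, a population that expands in old mice, gave 1 lower of 7 tested, the integrin gene Itgax (log2 fold change -1.25 ± 0.43, edgeR adjusted p = 0.652), while Itgam had -0.76 (edgeR adjusted p = 0.695). Myeloid cells express both integrins as well. Among germinal centre and recombination genes 5 of 14 were tested and 1 was lower, the uracil glycosylase gene Ung, which acts in class switching and also in general DNA repair. Ung averaged 3.91 ± 1.32 CPM in LKO and 9.09 ± 6.61 CPM in Flox (log2 fold change -1.18 ± 0.51, edgeR adjusted p = 0.652), and Flox 2 and Flox 3 were its highest libraries at 16.4 and 15.8 CPM. S1pr2 had a log2 fold change of -0.30 (edgeR adjusted p = 0.693). Of antibody receptors and transporters 10 of 12 were tested with 0 past an unadjusted p under 0.05 by edgeR; Trim21, the cytosolic antibody receptor, and Fcgr1, a high-affinity IgG receptor, had the smallest p (log2 fold changes -0.44 and -1.07, edgeR adjusted p = 0.652 for each).

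Plasma cell homing and survival factors gave 2 lower of 11 tested, both chemokines induced by interferon gamma. Cxcl9 averaged 14.3 ± 4.01 CPM in LKO and 135 ± 243 CPM in Flox (log2 fold change -3.19 ± 1.10, edgeR adjusted p = 0.652), where Flox 3 alone reached 569 CPM, and Cxcl10 had a log2 fold change of -1.95 ± 0.81 (edgeR adjusted p = 0.652). T cell markers gave 8 lower of 14 tested (4.33% of all genes tested were lower), with Lck at -1.54 ± 0.37 (edgeR adjusted p = 0.652) and Cd5, which some B cells also carry, at -1.62 ± 0.52 (edgeR adjusted p = 0.652). The 8 acute phase genes were all lower in LKO at an unadjusted p under 0.05, against 4.33% of all genes tested, led by Saa2 (-5.70 ± 1.80) and Apcs (-1.69 ± 0.59), each with an edgeR adjusted p of 0.652. None of the 13 lists had a gene past the adjusted threshold.

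The remaining lists cover other cells and tissues. Kupffer cell and macrophage markers gave 0 of 10 past an unadjusted p under 0.05 by edgeR, with C1qb and C1qa at log2 fold changes of -0.59 and -0.48. Lymphoid stroma genes gave 0 of 3 tested (Ltb -0.69, Clu -0.43), and pancreas and gut genes 0 of 4 tested (Amy2b 0.45, Lgals4 -0.32). Levels within these lists were far apart. Clu lay at 1492 to 4006 CPM, while Ccl21a had 0 counts in every library. Prss2 and Ins2 had 0 counts in every library too, while Fabp2 lay at 24.4 to 102 CPM. Among hepatocyte genes 1 of 8 was higher, Alb (0.62 ± 0.26, edgeR adjusted p = 0.652), and 1 was lower, Pck1 (-0.47 ± 0.20, edgeR adjusted p = 0.652). The 4 marker genes named for liver plasma cells, Ighg1, Ighg2c, Igha and Igkc, all had log2 fold changes below 0 (that of Igkc, at -0.05, turned to 0.11 with limma-voom), with Ighg1 the only gene of them at an unadjusted p under 0.05.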

How the data were processed

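Whole-liver poly(A)-selected RNA was measured in 10 libraries, 5 LKO and 5 Flox. The authors deposited raw counts, 1 whole number per Ensembl gene and library, per the file headers. Tools named in the submitters' processing notes are featureCounts 1.4.6-p5 from Subread, STAR 2.5.1a and bcl2fastq, with GRCm38 as the build. What strand setting and gene annotation were used for counting, and how reads with several matches were treated, is not given in the sources used here. After 287 repeated Ensembl lines with identical counts were dropped, 55487 genes remained. All 10 value columns were used.

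LKO was compared with Flox over the whole table by edgeR 4.0.16 in R 4.3.3 (filterByExpr at its defaults, TMM, robust quasi-likelihood F test, Benjamini-Hochberg adjustment over the 15894 genes tested, threshold 0.05, two-sided, no covariate), and only rows of the immunoglobulin genes and of 13 lists of related genes are given. CPM are counts scaled to the library total. Shares were compared by an exact permutation test of the 10 libraries (252 arrangements) (Python 3.11.15), adjusted over the 10 class and light chain shares or the 3 loci, with 95% exact (Clopper-Pearson) intervals. These intervals and the limit of 3 counts cover counting error only. Among all deposited counts 24437 equal 2 and 10488 equal 1, and 11558 equal 4 and 3870 equal 3, so counts rose mostly in steps of 2 and intervals are narrower than for independent molecules.

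Named genes were all constant genes, the leading V gene of each library and locus, the 5 V genes with the most counts in Igh and Igk and the 3 in Igl, the 5 higher and 5 lower tested genes with the smallest p, and from each list up to 4 genes past the adjusted threshold or otherwise the 2 with the smallest p. The immunoglobulin genes, lists and alternatives were chosen with earlier results of these data known. V exon and J sequences, positions and identities come from GENCODE M21 on GRCm38, in which all 167 genes were found, with alignment by Biopython 1.88. None of the 167 had an entry in the RefSeq promoter table. The fit was tested on simulated counts (15580 genes tested): for LKO over Flox it recovered 5 of 50 genes changed 1.5-fold, 26 of 48 changed 2-fold, 34 of 49 changed 3-fold and 45 of 46 changed 4-fold, with 8 false calls. The changed genes were drawn at random from all genes that passed the filter. In the real fit the median SE was 0.18 for all genes tested and 0.65 for the immunoglobulin genes. These rates therefore do not apply to the immunoglobulin genes. Alternatives were RLE factors, library totals alone, no expression filter, DESeq2 1.42.0, limma-voom 3.58.1 with quality weights, other denominators, pseudogenes, thinning to the smallest library, and leaving out libraries.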

Additional observations from a re-analysis of the deposited data

Results flagged for a closer look

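Within each group of 5 libraries, 15 values stood so far from the rest that the gap to the nearest library was over 0.71 of the group's whole range. In all 88 sets of 5 values were examined. The nominal rate of about 1 in 20 is no yardstick for them. Several V genes were examined because they led a library, and some genes were examined both in CPM and as a share. The 15 values are therefore a description.

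Flox 5 gave 6 of these values, all high: Ighg1 at 99.1 CPM (next Flox library 12.6 CPM), Ighv1-54 at 7.43 CPM (next 0.04 CPM), Igkv10-96 at 3.995 CPM (next 0.84 CPM), Ighv1-18 at 2.45 CPM (next 0.39 CPM), Iglv1 at 1.85 CPM (next 0.44 CPM) and Ighv1-85 at 0.485 CPM (next 0.13 CPM). LKO 2 gave 4: Igkv12-46 at 5.51 CPM (next LKO library 1.30 CPM), Ighg3 at 2.49 CPM (next 0.71 CPM), Ighv1-85 at 2.11 CPM (next 0.21 CPM) and an IgG3 share of 2.07% of the heavy chain (next 0.588%). In LKO 1, Igkv14-111 stood at 1.60 CPM (next 0.26 CPM). In Flox 2, Ighv1-12 stood at 0.514 CPM, on 25 counts (next 0.07 CPM). The remaining 3 rest on counts at or under the limit of 3: Ighe at 0.0371 CPM and an IgE share of 0.0183% in LKO 5, on 2 counts where the other four LKO libraries had 0, and Ighv1-54 at 0 CPM in LKO 4, where the other four had 2 counts each.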

How the results depend on the processing

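No paired analysis was possible because the Flox titles and the LKO titles share no number, and the LKO columns carry numbers that match no LKO title. No immunoglobulin gene passed the adjusted threshold under any alternative run. At an unadjusted p under 0.05, the numbers higher and lower in LKO were 0 and 2 of 41 tested. RLE factors gave 1 higher and limma-voom with quality weights 1 and 0. No expression filter gave 6 and 8 and DESeq2 7 and 7, among 167 genes each. Leaving out Flox 2 and Flox 3 gave 1 and 4 of 69. Leaving out each library in turn, 42 to 51 were tested. That gave 1 to 4 higher (4 without Flox 2) and 0 to 4 lower (4 without Flox 1). Over all genes tested, the share called in either direction was 7.51% in the main fit, 7.52% with RLE factors and 6.42% with limma-voom. It was 6.55% without a filter, 4.86% with DESeq2 and 3.12% without Flox 2 and Flox 3. With each library left out it ran from 3.6% (without Flox 3) to 11.7% (without Flox 5).

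With IgG and IgA alone as the denominator, the differences (LKO minus Flox) of IgG2b, IgG2c and IgA turned to 5.12, 5.04 and 3.63 points. Without Flox 2 and Flox 3 that of IgD turned to -0.0823 points. Leaving out each library in turn, the differences in points ran from 21.2 to 35.4 for IgM, from -27.4 to -16.1 for IgG in all, from -0.668 to 0.250 for kappa, from -0.0192 to 0.485 for IgG3 and from -5.35 to 0.610 for the leading Ighv gene. IgM and IgG in all passed the adjusted threshold only without Flox 1, the only Flox library inside the LKO range for both shares.

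Of the log2 fold changes of 48 named genes, 740 values under 16 alternatives kept their direction and call and 26 turned sign. With limma-voom Igkc turned to 0.11, Iglc3 to -0.17 and Ighv1-18 to 0.18. Without Flox 2 and Flox 3, Ighd turned to -0.30, Iglc1 to -0.19, Iglc3 to -0.11 and Iglv1 to -0.46. Leaving out each library in turn, values ran from -0.25 to 0.35 for Igkc, -0.24 to 1.31 for Ighg3, -0.46 to 0.0941 for Iglc2, -0.25 to 1.07 for Ighd, -0.38 to 0.44 for Iglc3, -0.0676 to 2.55 for Igkv12-46, -0.22 to 0.98 for Iglv1, -1.21 to 0.73 for Ighv1-18 and -0.35 to 0.34 for Ighv1-26. Apart from fewer libraries, the cause of these turns was not tested. Of the 167 immunoglobulin genes, 126 did not pass the filter on low counts and have no test in the edgeR fit, Igkv12-89 with 217 counts in Flox 4 among them.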
